A study of Rattus norvegicus with 35 samples.

Results

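The β and γ crystallins are a superfamily of structural proteins best known from the lens of the eye. The genes described here are the 10 members Cryba1, Cryba2, Cryba4, Crybb1, Crybb2, Crybb3, Crygb, Crygc, Crygd and Crygs, chosen by their gene symbol in the platform annotation. Each had exactly 1 probe set, a set of short probes summarized as 1 value, so the members are 10 of 31042 probe sets tested and 10 of 14217 genes with 1 symbol. Retinal RNA of adult female Sprague-Dawley rats was hybridized to 35 rat expression arrays, 1 pool of 4 left retinas from different animals per array. Naïve rats, which received no operation, gave 5 arrays. The other rats underwent intraorbital transection (IONT) or intraorbital crush (IONC) of the left optic nerve, which severs or crushes the axons of the retinal ganglion cells behind the eye. IONT retinas taken at 12 h, 48 h or 7 d filled 3 arrays per time, and those taken at 24 h, 3 d or 15 d filled 2. IONC retinas filled 3 arrays per time, from 12 h through 24 h, 48 h and 3 d to 7 d. The labels name no transgene or drug for any group, and the pooling means that p-values measure the spread between pools of retinas, not between animals.

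Crystallins fill the fibre cells of the lens, where they pack densely and keep the tissue clear. The β crystallins form dimers and larger oligomers and are divided into acidic (A) and basic (B) chains, whereas the γ crystallins are monomers, and α crystallins, which are small heat shock proteins and no members here, act as their chaperones. Several crystallins are also transcribed in the retina itself.

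In the rat genome 3 γ genes lie side by side: Crygd, Crygc and Crygb are neighbours on chromosome 9, with Cryge before and Cryga after them. Crybb3 and Crybb2 are neighbours on chromosome 12, as are Crybb1 and Cryba4, while Cryba1 lies on chromosome 10, Cryba2 on chromosome 9 and Crygs on chromosome 11. Promoters are printed because the members moved together on these arrays. They cover the 250 bases before the annotated start of the gene on its own strand, in RefSeq sequence of the GRCr8 build. Capitals mark 4 motifs searched on both strands: TATAAA, the letters of a TATA box, TGCTGAC, the core recognised by Maf factors, which act on crystallin genes in the lens, GAANNTTC, the core of heat shock elements, and CCCTTTTGTG, a run of 10 bases that was picked after the sequences were seen as the longest run in common to Crygb, Crygc and Crygd. The first 2 promoters belong to members with TATAAA and the last 3 to the neighbouring γ genes. Only these exact letters were searched, so a promoter without them may still hold another form of TATA box.
Cryba1, chr10:63112818-63113067, minus strand: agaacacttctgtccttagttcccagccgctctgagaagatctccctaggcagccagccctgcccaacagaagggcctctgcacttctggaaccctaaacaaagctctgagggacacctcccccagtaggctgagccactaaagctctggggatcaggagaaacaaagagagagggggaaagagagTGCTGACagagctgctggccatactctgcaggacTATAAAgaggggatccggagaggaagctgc
Crygs, chr11:91711505-91711754, plus strand: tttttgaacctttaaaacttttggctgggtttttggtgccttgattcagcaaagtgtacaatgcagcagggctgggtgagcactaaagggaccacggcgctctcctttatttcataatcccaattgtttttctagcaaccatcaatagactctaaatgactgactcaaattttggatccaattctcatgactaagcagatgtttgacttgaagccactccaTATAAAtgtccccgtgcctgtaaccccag
Crygb, chr9:73957265-73957514, minus strand: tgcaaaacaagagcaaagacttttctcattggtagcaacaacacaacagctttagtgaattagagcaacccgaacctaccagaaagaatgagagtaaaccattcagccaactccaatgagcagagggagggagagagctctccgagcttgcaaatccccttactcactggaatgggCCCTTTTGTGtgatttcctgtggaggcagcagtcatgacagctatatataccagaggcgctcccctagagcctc
Crygc, chr9:73947368-73947617, minus strand: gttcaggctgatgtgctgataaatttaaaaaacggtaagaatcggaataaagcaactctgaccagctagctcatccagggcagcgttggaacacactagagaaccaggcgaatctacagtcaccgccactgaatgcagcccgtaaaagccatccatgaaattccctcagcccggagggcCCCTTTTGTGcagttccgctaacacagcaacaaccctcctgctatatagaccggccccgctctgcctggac
Crygd, chr9:73937410-73937659, minus strand: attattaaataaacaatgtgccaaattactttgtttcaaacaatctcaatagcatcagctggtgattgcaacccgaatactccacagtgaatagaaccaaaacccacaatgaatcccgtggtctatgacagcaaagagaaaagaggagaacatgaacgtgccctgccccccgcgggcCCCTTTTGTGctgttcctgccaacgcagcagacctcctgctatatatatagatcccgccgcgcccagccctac

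TATAAA was found in the promoters of 3 of the 10 members (Cryba1, Cryba2 and Crygs) and in 12.9% of 33469 rat promoters of the same length. In Cryba1 it began at base -30 from the start of the gene and in Crygs at base -29. TGCTGAC was found in 2 members, Cryba1 at base -64 and Cryba4 at base -138, and in 3.53% of promoters. GAANNTTC was in 0 of the 10 members and in 7.23% of promoters. The run CCCTTTTGTG stood at base -74 in Crygb, -71 in Crygc and -73 in Crygd, in no other member and in 0.0956% of promoters. Crygc has another annotated start, whose promoter is not printed, and from that start the run stood at base -91. Because that run was chosen from these sequences its share carries no test, and none of the matches is evidence of a bound factor.

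Before the results, 3 facts about the arrays matter. Control probe sets for β-actin, whose signal at the 3′ end less that at the 5′ end is a measure of RNA and labelling quality, gave 1.53 to 1.93 log2 units on 27 arrays (array set 1) and 2.61 to 3.65 on 8 arrays (array set 2). Array set 2 holds naïve replicates 4 and 5 and all arrays of IONT 24 h, 3 d and 15 d. Each of these 3 groups was therefore set against naïve replicates 4 and 5, and the other 8 groups against naïve replicates 1 to 3. IONC 12 h replicate 2 stood apart from all arrays, with a median correlation to the others of 0.871 against 0.962 to 0.992 for the rest. The tissue markers read as retina on every array, with the summed signal of 4 rod genes at 15.62 to 16.46 on the log2 scale, and the summed signal of 6 retinal ganglion cell markers fell to 8.99 to 9.27 at 15 d after IONT, from 12.91 to 13.04 on naïve replicates 4 and 5.

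The probe set of Crygb is of the x_at class, whose probes can also match other sequences, and that of Crygc of the a_at class, which can match several transcripts of a gene, so signal shared with close relatives cannot be told apart in the values of these γ genes or in how closely they vary together. All 10 members gave signal. Every β member and Crygs was above a log2 value of 4 on 35 of 35 arrays, Crygb and Crygc on 34 and Crygd on 33. The mean signals of the β members and Crygs exceeded those of 98.4% to 99.9% of the probe sets. The spread within groups was wide. The residual SD of the members had a median of 0.67 log2 units, against 0.27 over all probe sets. It was lowest for Crybb2 (0.39) and Cryba1 (0.40), and for Crygd (1.63), Crygc (1.88) and Crygb (2.00) it was larger than that of 99.96% to 99.99% of probe sets. Crygd ranged from 2.33 to 13.14 over the arrays and Crybb2 from 11.78 to 14.62.

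**Figure D1:**
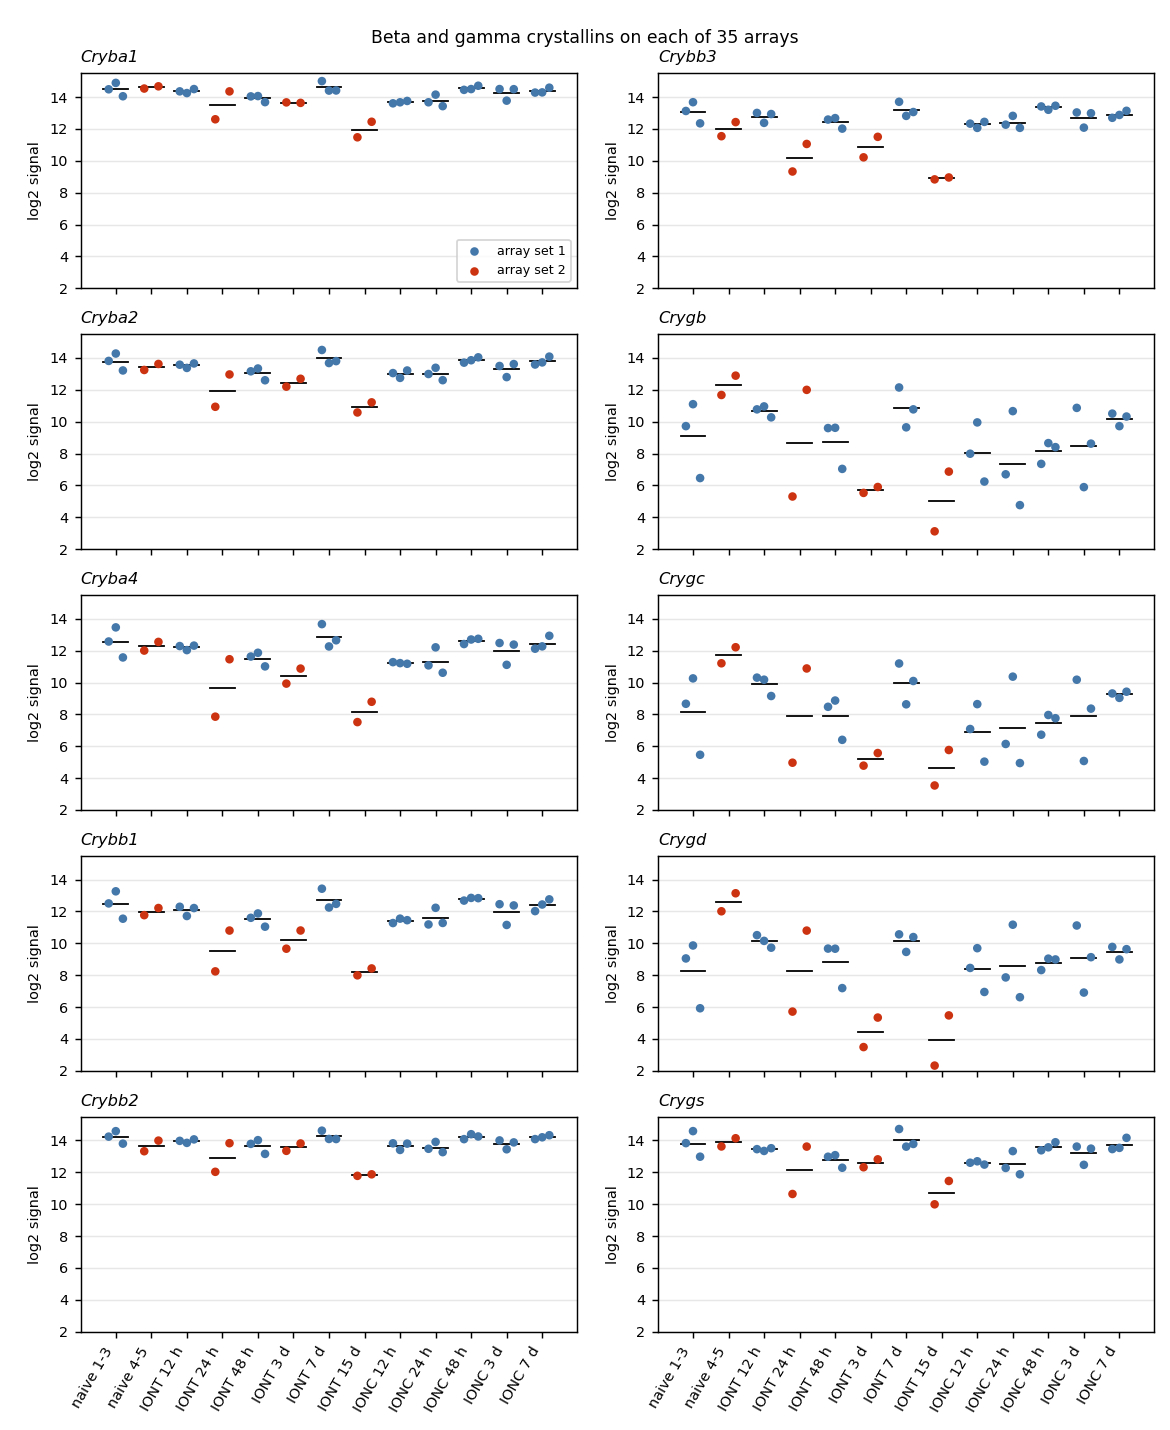
Log2 signal (vertical axis) of each of the 10 members on 35 arrays, by group (horizontal axis), with the arrays of set 1 in blue, those of set 2 in red and the group mean as a bar. IONT 15 d has the lowest group mean in all 10 panels, and the 3 panels of Crygb, Crygc and Crygd show the widest scatter within groups.

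The order of the 13 group means was alike at its low end. IONT 15 d was lowest for 10 of 10 members, and the next lowest was IONT 24 h for 7 members and IONT 3 d for Crygb, Crygc and Crygd. The highest mean was that of IONT 7 d for 5 members, IONC 48 h for Crybb1 and Crybb3, and naïve replicates 4 and 5 for Crygb, Crygc and Crygd. Most neighbours in this order overlapped: of the 12 pairs of neighbouring groups, between 0 and 2 did not overlap in any member. IONT 15 d lay clear of its neighbour IONT 24 h in Cryba1, Crybb2 and Crybb3. It also lay clear of IONT 24 h in Crygd, where its neighbour was IONT 3 d. Neighbours or not, IONT 15 d lay clear below IONT 24 h in 43.2% of all probe sets. This order runs across both array sets, whose quality values differ.

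At 15 d after IONT the β crystallins were far below naïve retina, and 8 of the 10 members were called lower. To be called, a probe set had to reach an adjusted p under 0.01 in limma, with a B statistic (log odds of a change) over 0 and 1.2-fold or more between the means. In this comparison 1.87% of all probe sets were called and 0.341% were called lower. The median change of the members was -3.47 log2 units, against -0.04 over all probe sets tested. The 2 arrays of IONT 15 d lay below both naïve arrays in 10 of 10 members, as they did in 42.1% of all probe sets, and below all 33 other arrays in 3 members, Cryba1, Crybb2 and Crybb3, as in 18.6% of all probe sets.

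Among the acidic β chains, Cryba1 encodes the βA3 and βA1 proteins from 1 transcript. Its signal was 14.54 and 14.68 on naïve replicates 4 and 5 and 11.48 and 12.45 on the IONT 15 d arrays. The injured arrays lay more than 2 log2 units below the naïve ones. The change was -2.64 (SE 0.38, adjusted p = 0.000111), which is 6.24-fold lower. Cryba2 read 13.25 and 13.62 on the naïve arrays and 10.58 and 11.21 at 15 d, again with no overlap. It fell by 2.54 log2 units (SE 0.45, adjusted p = 0.00107). Cryba4, whose protein pairs with the basic chain of its genomic neighbour Crybb1, read 12.01 and 12.55 on the naïve arrays and 7.52 and 8.79 at 15 d. Its change of -4.12 (SE 0.77, adjusted p = 0.00188) was the largest of the β members.

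The basic chains were also called lower, by unequal amounts. Crybb1 read 11.77 and 12.22 on the naïve arrays and 7.99 and 8.43 at 15 d, a change of -3.78 (SE 0.62, adjusted p = 0.00045). Both injured arrays lay close together and far below both naïve arrays. Crybb2, a major protein of the adult lens that has also been studied in the growth of retinal axons, read 13.32 and 13.99 on the naïve arrays and 11.78 and 11.88 at 15 d. Its change of -1.83 (SE 0.38, adjusted p = 0.00541) was the smallest of all members. Crybb3 read 11.55 and 12.43 on the naïve arrays and 8.84 and 8.96 at 15 d, and fell by 3.09 log2 units (SE 0.49, adjusted p = 0.000296).

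Of the γ crystallins, Crygs encodes γS, a form found in the outer lens cortex. It read 13.62 and 14.14 on the naïve arrays and 9.99 and 11.46 at 15 d, a change of -3.16 (SE 0.67, adjusted p = 0.00591). Both injured arrays were below the naïve ones, but they differed from each other by more than 1 log2 unit. Crygd, one of the γ crystallins of the lens core, read 12.01 and 13.14 on the naïve arrays and 2.33 and 5.48 at 15 d. The change of -8.68 (SE 1.57, adjusted p = 0.00131) was called, and replicate 1 was near the floor of the scale. Crygb and Crygc, which are of the same core class, were not called. Crygb read 11.68 and 12.89 on the naïve arrays against 3.12 and 6.87, with a change of -7.29 (SE 1.93, adjusted p = 0.0331), and Crygc read 11.21 and 12.22 against 3.54 and 5.76, with a change of -7.06 (SE 1.81, adjusted p = 0.0266). For these 2 genes the changes were large and so were their errors. Naïve replicate 3, in array set 1, read 6.46 for Crygb and 5.46 for Crygc, below IONT 15 d replicate 2. For Crygd it read 5.93, above that array. Against all 5 naïve arrays the changes were -5.38 for Crygb, -4.91 for Crygc and -6.10 for Crygd.

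**Figure D2:**
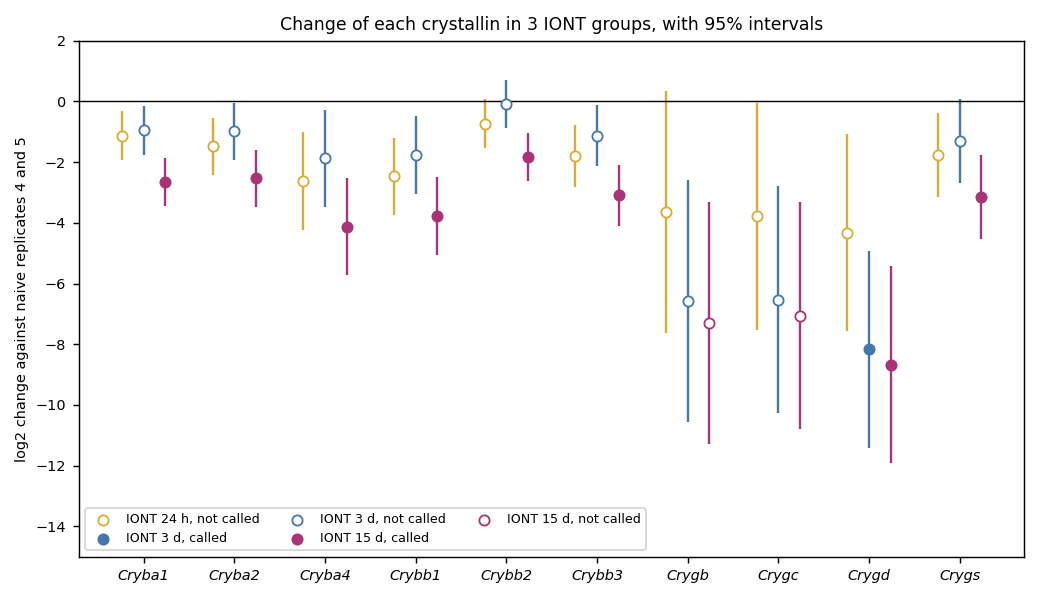
Log2 change (vertical axis) of each member (horizontal axis) at 24 h, 3 d and 15 d after IONT against naïve replicates 4 and 5, with the 95% interval as a line; filled points were called and open ones were not. At 15 d 8 of 10 points are filled, and the intervals of Crygb, Crygc and Crygd are the widest.

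The 15 d counts rested on few arrays. The count of called members dropped to 2 without naïve replicate 5 (1.42% of all probe sets called), to 3 without IONT 15 d replicate 1 (1.58%), and to 5 without naïve replicate 4 (1.03%). With array set 2 fitted alone, which leaves 4 residual degrees of freedom, 0 of 10 were called by limma against 0.0161% of all probe sets, and 10 of 10 had an unadjusted p under 0.05 against 19.6% of all probe sets. The SEs in that fit were larger for 10 of 10 members than in the fit of all arrays, from 0.62 for Crybb2 to 2.46 for Crygb. Set against all 5 naïve arrays, 7 of 10 were called, with 4.03% of all probe sets, and Crygd was no longer among them. Crybb2 and Crygs lost their calls under array weights and under loess normalization between arrays. The direction was lower under every alternative run for all 10 members, although many of these alternatives cannot move the change itself. A signal per pool cannot tell fewer cells of a type from less RNA per cell. Blood and pigment epithelium markers were also lower on these arrays. The summed signal of 2 blood genes was 10.48 to 11.37 on naïve replicates 4 and 5, 9.44 to 9.89 at 24 h, 9.75 to 10.35 at 3 d and 8.93 to 9.26 at 15 d after IONT. That of 10 pigment epithelium genes was 12.03 to 12.63 on naïve replicates 4 and 5 and 11.10 to 11.69 on naïve replicates 1 to 3, against 11.27 to 11.61 at 24 h, 11.19 to 11.22 at 3 d and 11.39 to 11.44 at 15 d. The part of these markers, and of the lens markers given further on, in the members' values was not tested.

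At 3 d after IONT the 3 γ genes of chromosome 9 were near the bottom of their range, while the β members and Crygs had smaller changes. All 10 changes were below 0, with a median of -1.54. Crygd was the only member called (0.954% of all probe sets called, 0.296% called lower). It read 3.49 and 5.34 at 3 d, a change of -8.16 (SE 1.57, adjusted p = 0.00413). Crygb read 5.53 and 5.90, a change of -6.57 (SE 1.93, adjusted p = 0.0841), and Crygc read 4.78 and 5.57, a change of -6.53 (SE 1.81, adjusted p = 0.0625). The β members and Crygs lay between -1.87 (Cryba4) and -0.08 (Crybb2), none of them called. Both IONT 3 d arrays were below both naïve arrays in 9 of 10 members, as in 37.2% of all probe sets, and Crybb2 was the exception. The call of Crygd was lost with all 5 naïve arrays (-5.58, adjusted p = 0.0303), with array weights, with array set 2 fitted alone, and without naïve replicate 4, naïve replicate 5 or IONT 3 d replicate 1.

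At 24 h after IONT the 2 arrays disagreed. Their labels give a letter in the title and a number in the description that run in opposite order, and the replicate numbers used here are those of the description. Replicate 1 was below replicate 2 in 10 of 10 members. Cryba4 read 7.86 on replicate 1 and 11.46 on replicate 2, and Crygb read 5.30 and 12.00. Replicate 1 thus lay nearer to IONT 15 d and replicate 2 nearer to the naïve arrays. Replicate 1 also had the highest actin difference of the 35 arrays, 3.65 against 3.22 on replicate 2, and a summed cornea marker signal of 11.43 against 9.84, and the part of either in the members' values was not tested. No member was called by limma (0.831% of all probe sets called), 8 of 10 had an unadjusted p under 0.05 (9.22% of all probe sets), and the median change was -2.13. Crybb1 had the smallest adjusted p, with a change of -2.47 (SE 0.62, adjusted p = 0.0358). Both arrays were below both naïve arrays in 8 of 10 members, against 23.6% of all probe sets. Without replicate 2, which leaves 1 array in the group whose spread is taken from the other groups, the count of called members rose to 6 (1.05% of all probe sets called), and against all 5 naïve arrays it was 4, Cryba2, Cryba4, Crybb1 and Crybb3, with 2.59% of all probe sets called.

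Within array set 2 the injured groups can be compared with no naïve array. IONT 15 d minus IONT 24 h gave changes below 0 for 10 of 10 members, with a median of -1.45. No member was called by limma (1.89% of all probe sets), and 7 had an unadjusted p under 0.05 (14.4% of all probe sets). IONT 15 d minus IONT 3 d also lay below 0 for 10 of 10 members. None was called (1.01% of all probe sets), and 7 had an unadjusted p under 0.05 (9.54%), the 6 β members and Crygs. Their changes ran from -2.25 for Cryba4 to -1.55 for Cryba2, and Crybb2 had the smallest adjusted p, 0.012, with a change of -1.75 (SE 0.38). Crygb, Crygc and Crygd differed by -0.72 to -0.51 between 15 d and 3 d, with intervals that include 0.

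In array set 1 the median change of the members against naïve replicates 1 to 3 lay between -0.91 and 0.26. Single members lay between -1.72 and 1.86. No member was called by limma in any of the 8 comparisons, in which all probe sets were called at 1.05% (IONT 12 h), 2.06% (IONT 48 h), 0.976% (IONT 7 d), 4.14% (IONC 12 h), 0.896% (IONC 24 h), 1.36% (IONC 48 h), 0.348% (IONC 3 d) and 0.577% (IONC 7 d). At an unadjusted p under 0.05 the count was 4 members at IONC 12 h (46.4% of all probe sets), 4 at IONC 24 h (8.95%) and 0 in the other 6. The 6 β members and Crygs, none of them called, had like signs. All 7 genes were below 0 after IONT at 12 h and 48 h and after IONC at 12 h, 24 h and 3 d, and all 7 above 0 at IONT 7 d, where they lay between 0.06 and 0.32. These comparisons share naïve replicates 1 to 3, and the 7 genes are closely correlated over arrays. The largest of these values was Cryba4 at IONC 12 h, -1.31 (SE 0.63, adjusted p = 0.107).

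Crygb, Crygc and Crygd took other values than the β members in some of the same comparisons. At IONT 12 h they lay between 1.57 and 1.85 above naïve replicates 1 to 3, at IONT 7 d between 1.76 and 1.86, and at IONC 7 d between 1.09 and 1.19. At the other times their values fell on both sides of 0, from -0.34 to 0.56 at IONT 48 h, -1.21 to 0.09 at IONC 12 h, -1.72 to 0.27 at IONC 24 h, -0.96 to 0.50 at IONC 48 h and -0.63 to 0.77 at IONC 3 d. None of these was called, and the smallest adjusted p was 0.507. The naïve arrays themselves spread widely. Crygb read 9.72, 11.10 and 6.46 on naïve replicates 1 to 3, Crygc 8.67, 10.26 and 5.46, and Crygd 9.05, 9.87 and 5.93. Naïve replicate 3 was the lowest of these 3 arrays in 10 of 10 members and replicate 2 the highest in 10 of 10.

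**Figure D3:**
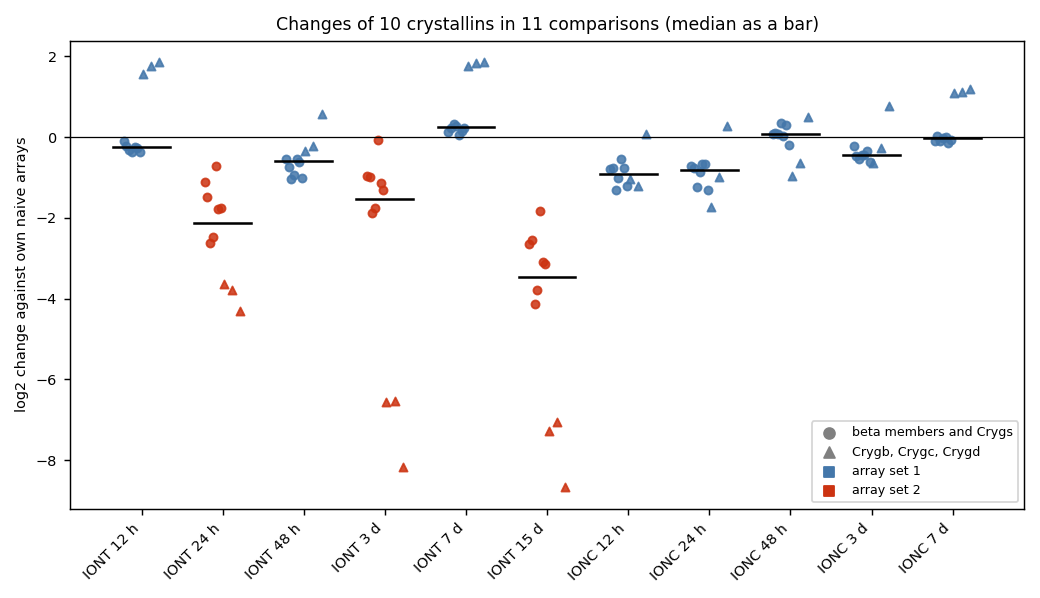
Log2 change (vertical axis) of the 10 members in the 11 comparisons with naïve arrays (horizontal axis), with circles for the β members and Crygs, triangles for Crygb, Crygc and Crygd, the median as a bar, array set 1 in blue and array set 2 in red. The medians lie between -0.91 and 0.26 in array set 1 and between -3.47 and -1.54 in array set 2.

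The lesions were compared at the 5 shared time points, each first set against the naïve arrays of its own array set at 24 h and 3 d. No member was called different between IONC and IONT by limma, where all probe sets were called at 1.32% (12 h), 0.235% (24 h), 0.145% (48 h), 0.126% (3 d) and 0.0548% (7 d). At an unadjusted p under 0.05 1 member passed at 12 h (38.6% of all probe sets), 1 at 24 h (7.35%), 3 at 48 h (5.98%) and 3 at 3 d (7.18%), and none at 7 d. The largest difference was that of Crygd at 3 d, where IONC exceeded IONT by 8.94 log2 units (SE 2.03, adjusted p = 0.0459, 95% interval 4.74 to 13.13). Of this, 4.30 is the difference between the 2 sets of naïve arrays: with all 5 naïve arrays as 1 group the value was 4.64 (SE 1.66, adjusted p = 0.0673). At 7 d, with both lesions in array set 1, the members differed by -0.72 to -0.06, all 10 lower after IONC and none of them called.

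Crygb, Crygc and Crygd read higher on naïve replicates 4 and 5 than on 1 to 3, with no lesion involved and with no call. Crygd read 12.01 and 13.14 on naïve replicates 4 and 5, above the 3 other naïve arrays, which read 5.93 to 9.87. The difference was 4.30 (SE 1.44, adjusted p = 0.0462). Crygc differed by 3.58 and Crygb by 3.19. Crybb3 differed the other way, by -1.07, and the other β members and Crygs lay between -0.55 and 0.13. No member was called by limma (7.47% of all probe sets), and 3 had an unadjusted p under 0.05 (22% of all probe sets).

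The members varied together from array to array. Over the 35 arrays Pearson's r between 2 members had a median of 0.871 over the 45 pairs, from 0.555 for Crybb3 with Crygc to 0.990 for Cryba2 with Cryba4, and Spearman's rho a median of 0.80, from 0.452 to 0.986. The adjusted permutation p-values of r lay between 1.15e-05 and 0.00036, and the smallest unadjusted p was 1e-05, the smallest that 100000 resamples can give. They treat the arrays as exchangeable, although the arrays come from 13 groups. That these genes vary together on these arrays was also known beforehand, so the p-values are a description and no independent support. Without the 2 arrays farthest from the median of the first gene of a pair, r lay between 0.443 and 0.991. On deviations from the 13 group means, which remove every group difference, the median was 0.889, from 0.716 to 0.989. Within array set 1 the median was 0.909 and within array set 2 it was 0.910.

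Pairs fell into blocks. The 21 pairs among the β members and Crygs had a median r of 0.950 and the 3 pairs among Crygb, Crygc and Crygd lay between 0.938 and 0.989, while the 21 pairs across the 2 blocks had a median of 0.731. In 8 of the 13 groups 1 array was the highest in all 10 members or the lowest in all 10. At IONC 24 h, for example, replicate 2 was the highest in 10 of 10, and at IONC 3 d replicate 2 was the lowest in 10 of 10. The mean deviation of the 10 members from the group mean was 1.31 log2 units on the former array and -1.19 on the latter. At IONT 7 d replicate 1 was the highest in 10 of 10, with Crygb at 12.15 against 9.65 and 10.77.

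**Figure D4:**
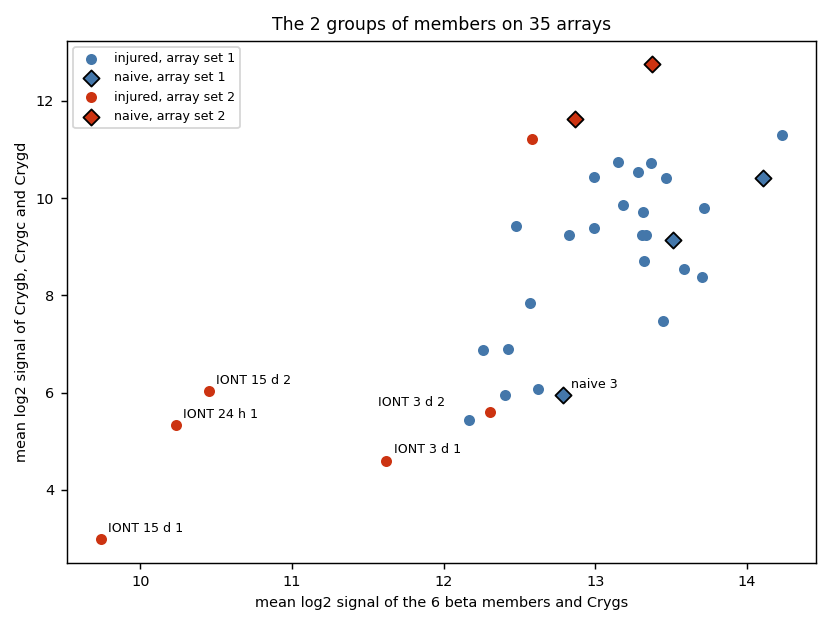
Mean log2 signal of Crygb, Crygc and Crygd (vertical axis) against that of the 6 β members and Crygs (horizontal axis) on each of the 35 arrays, with naïve arrays as diamonds, array set 1 in blue and array set 2 in red. Naïve replicates 4 and 5 lie at 11.63 and 12.75 on the vertical axis, above all other arrays, and IONT 15 d replicate 1 is lowest on both axes, at 3.00 and 9.74.

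Genes other than the 10 members were ranked by how closely they followed the mean deviation of the members, over 35 arrays and 3737 genes whose SD over arrays was at least 0.5. That mean was not scaled, so Crygb, Crygc and Crygd, which spread most, weigh most in it and in every r with it. Their own r with the mean was 0.968 to 0.972, and that of the other members 0.85 (Crybb3) to 0.966 (Crygs). Among the ranked genes the highest r was 0.922, for both Bfsp1, which encodes the lens filament protein filensin, and Grifin, a galectin-related lens protein. Next came Bfsp2, which encodes phakinin (0.863), the lens membrane protein gene Lim2 (0.863), the fatty acid binding protein gene Fabp5 (0.843), Lenep (0.795), the lens aquaporin gene Mip (0.767), Crygn (0.76), Rex1bd (0.717) and Spry3 (0.668). Spry3 had a mean signal of 2.49, at the floor of the scale. These values describe co-variation over arrays and carry no test.

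Lens fibre markers moved with the members. Of 10 listed genes 8 were measured and 7 were above a log2 value of 4 on at least 2 arrays. Their r with the mean deviation of the members had a median of 0.815, and 6 of 8 exceeded 0.5. At 15 d after IONT 3 of 8 were called lower: Lim2 (-4.05, adjusted p = 0.00292), Grifin (-2.75, adjusted p = 0.00467) and the αA crystallin gene Cryaa (-1.18, adjusted p = 0.000128). Bfsp1 changed by -5.29 (adjusted p = 0.0169), Bfsp2 by -2.70 (adjusted p = 0.0138), Gja3 by -2.97 (adjusted p = 0.0829) and Mip by -3.03 (adjusted p = 0.29), none of which passed the thresholds. Dnase2b, whose enzyme clears fibre cell DNA, lay between 2.00 and 3.96 on all arrays. The median change of the list was -2.86, against -3.47 for the members.

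The summed signal of the fibre markers was 14.55 to 14.93 on naïve replicates 4 and 5 and 14.64 to 15.28 on naïve replicates 1 to 3. It was 13.76 to 14.49 at IONT 24 h, 14.31 to 14.44 at IONT 3 d, 13.22 to 13.40 at IONT 15 d, and 14.23 to 15.44 in array set 1 after injury. The sum was lowest at IONT 15 d, the group in which the members were lowest. Most of this sum was Cryaa, which is also counted among the other lens crystallins. On naïve replicate 1 Cryaa alone read 14.66 and the sum 14.99, both on the log2 scale. Of the 3 lens epithelium markers, Foxe3 and Pitx3 gave little signal, between 1.21 and 3.15 and between 1.99 and 3.74 on all arrays. The third, Pdgfra, lay between 5.06 and 9.67 and is also a marker of retinal astrocytes. At 15 d 0 of 3 were called. The part of lens tissue in the members' values was not tested.

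Of 6 other lens crystallins, 4 were measured and all 4 were called lower at 15 d after IONT. They were Cryaa, Cryab (-1.17, adjusted p = 0.000459), Cryga (-5.17, adjusted p = 0.000929) and Crygn (-2.85, adjusted p = 0.000874). Cryga, the genomic neighbour of Crygb, was also called lower at 24 h (-4.78) and 3 d (-4.66) and higher on naïve replicates 4 and 5 than on 1 to 3 (4.03, adjusted p = 0.000968). Its pattern across the naïve arrays was that of Crygd, Crygc and Crygb. Of the transcription factors that act on crystallin genes in the lens (Maf, Pax6, Prox1, Hsf4 and others), 10 of 11 were measured, 5 were above a log2 value of 4, and 0 were called in any comparison with naïve arrays. Their r with the mean deviation of the members had a median of 0.147. The 6 measured genes that carry the name crystallin but are enzymes or of other families had a median r of -0.10, and 0 were called at 15 d.

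**Figure D5:**
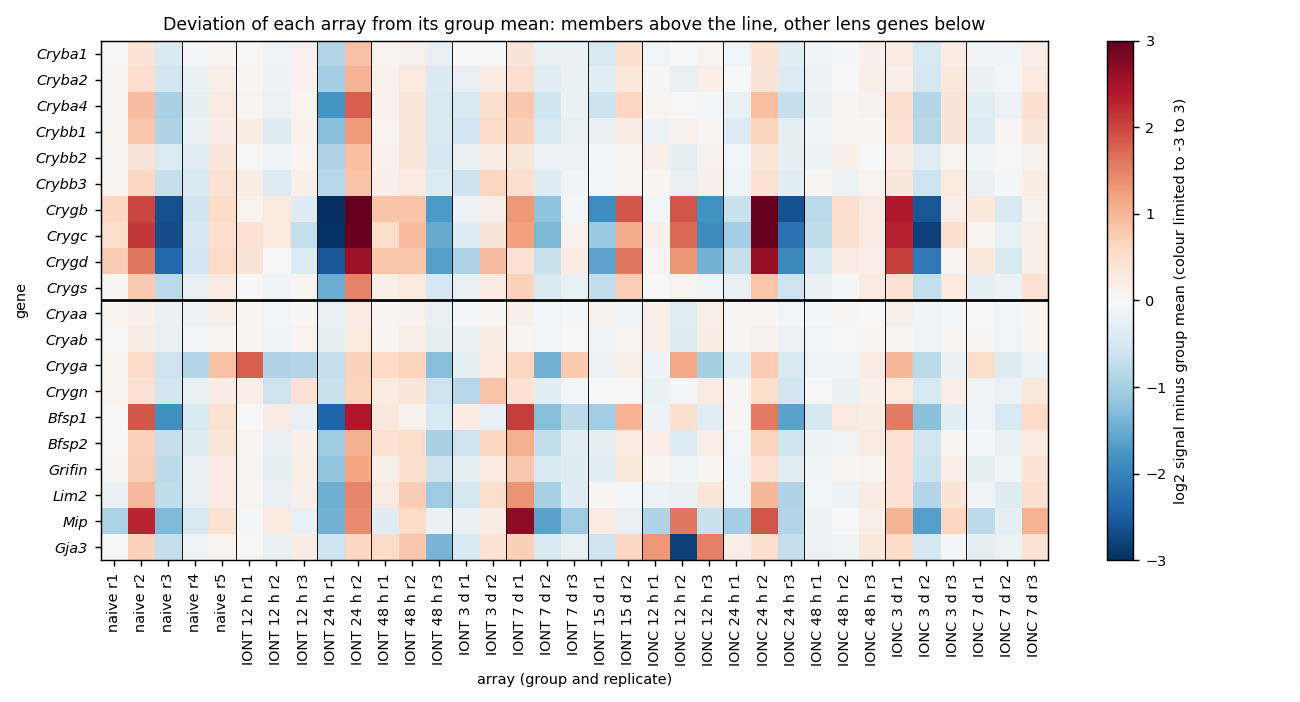
Log2 signal minus the group mean, as colour, for the 10 members (upper block) and 10 other lens genes (lower block), on 35 arrays (horizontal axis, r for replicate). Columns such as IONT 24 h replicate 1, IONC 24 h replicate 2 and IONC 3 d replicate 2 carry 1 colour through all 10 members.

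Markers of other cells varied less closely with the members than the lens fibre list did. The median r with the mean deviation of the members was 0.25 for 10 pigment epithelium genes, -0.01 for 4 ciliary body and iris genes, -0.09 for 4 cornea genes, 0.07 for 4 myelin genes, 0.06 for 5 muscle genes, and -0.06 for 4 rod genes. It was -0.12 for 4 Müller glia genes, -0.15 for 3 amacrine genes, -0.11 for 3 bipolar genes, 0.12 for 3 cone genes, 0.345 for 2 blood genes and 0.08 for 6 ganglion cell genes. At 15 d after IONT 0 genes of the photoreceptor, bipolar, amacrine, Müller, pigment epithelium, blood, cornea, muscle, myelin and ciliary lists were called, although the 2 blood genes lay at -1.84 and -0.17 and the pigment epithelium list had a median change of -0.77, while 6 of 6 ganglion cell markers were called lower, with a median change of -3.98. Ganglion cell markers were also called lower at 48 h after IONT (4 of 6) and IONC (5 of 6), at 3 d (4 of 6 after each) and at 7 d (6 of 6 after each). In these comparisons the only member called was Crygd, at 3 d after IONT. All probe sets were called there at 2.06% and 1.36% (48 h, IONT and IONC), 0.954% and 0.348% (3 d), and 0.976% and 0.577% (7 d). A link between the ganglion cell markers and the members was not tested.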

How the data were processed

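The authors deposited log2 signals per probe set for 35 arrays, made with GCRMA, which corrects background with probe sequence, normalizes by quantiles and summarizes probes. GCRMA and limma are named in the submitters' processing notes, with no version. These values were used as deposited. Of 31099 probe sets, 57 controls were left out and 31042 were tested. Symbols came from the platform annotation, in which 20826 probe sets had 1 symbol, 436 several and 9780 none. By gene number 10 of 10 members matched the RefSeq table. The number of arrays, not depth, limits precision.

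A limma 3.58.1 model (R 4.3.3, statmod 1.5.0) with 13 coefficients, the 11 injured groups, naïve replicates 1 to 3 and naïve replicates 4 and 5, was fitted to all probe sets and arrays (22 residual degrees of freedom). Calls required p under 0.01 after Benjamini-Hochberg adjustment over all probe sets of a comparison, B over 0 and 1.2-fold or more. The fit was tested on simulated data. Array sets were set from the actin controls with earlier results of these data known, as were the members, the gene lists and the alternatives, so none is independent of the data. An array set is no batch that the labels name. Correlations used 100000 permutations and Benjamini-Hochberg adjustment over 45 pairs. Named genes were all members, measured lens genes, called list genes and the 10 genes most like the members. The alternatives tried were other naïve arrays, array sets apart, thresholds, a filter on low values, moderation, array weights, a replicate block, centring, loess and each array left out.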

Additional observations from a re-analysis of the deposited data

How the results depend on the processing

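Over the 11 comparisons with naïve arrays 9 calls of members were made. The count was 0 with each array set fitted alone. Leaving out each array in turn gave 2 to 15, with 2 without naïve replicate 5, 4 without IONT 15 d replicate 1, 5 without naïve replicate 4 and 15 without IONT 24 h replicate 2. At IONT 15 d (8 calls) it was 0 with the array set alone and 2 to 8 with an array left out. At IONT 24 h (0 calls) it was 4 with all 5 naïve arrays, 1 at an adjusted p under 0.05 without B and 0 to 6 with an array left out. At IONT 3 d (1 call) it was 0 with all 5 naïve arrays, with the array set alone and with array weights, and 0 to 1 with an array left out. At IONC 12 h (0 calls) array weights gave 1, Cryba1. Array weights and loess each took away the IONT 15 d calls of Crybb2 and Crygs. Between the lesions (0 calls) all 5 naïve arrays gave 1, Crybb3 at 24 h (2.19), and an adjusted p under 0.05 without B gave 1, Crygd at 3 d. Between the naïve sets (0 calls) the latter threshold gave 1. Lens fibre markers called lower at IONT 15 d (3) were 0 with the array set alone, 5 at an adjusted p under 0.05 without B, 1 with array weights, 5 with arrays centred on their medians and 1 to 5 with an array left out. The cause of these moves was not tested. The fits of 1 array set hold fewer arrays, and the spread of the members also differed between the sets, as given below. The share of all probe sets called was not counted under array weights, loess, centring or the threshold without B. Nor was it counted for the lesions against all 5 naïve arrays or for most fits with an array left out. The member counts there have no general rate beside them. The median residual SD of the members, 0.67, was 1.11 in array set 2 alone and 0.53 to 0.68 with an array left out. The reported errors and p-values at IONT 24 h, 3 d and 15 d use 1 spread from both array sets, which is smaller than that of array set 2.

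Of 8170 single changes under alternatives, 7998 kept direction and side of the thresholds, 34 lost and 18 gained the call, 120 uncalled ones changed sign, and 0 called ones did. Many of these could not have changed direction. Leaving out an array outside a comparison moves its errors but not its change, and other thresholds or moderation do not move the change either. The high share that kept direction was thus partly fixed in advance and is no measure of robustness. Without the 4 arrays that stand apart, chosen after seeing the data (IONT 24 h replicate 1, both IONT 15 d arrays and IONC 12 h replicate 2), Crygd between the lesions at 3 d was called (8.94, adjusted p = 0.00599). The share of all probe sets called was not counted in the fit without these 4 arrays. The array set as a term is the same model as the one reported. Same-numbered arrays did not deviate together (median r 0.02 over 108 pairs, against -0.01 over 216 others), so no pairing by number was seen. With groups of 2 or 3 arrays a weak pairing could be missed. With the replicate block the counts were 9 over the 11 comparisons, 8 at IONT 15 d and 1 at IONT 3 d, and no other call changed. The block as a fixed term could be fitted only in array set 1, where it gave 0. The median correlation between members lay between 0.846 and 0.910 under the alternatives set out earlier and between 0.832 and 0.90 with an array left out. Alternatives with another probe set could not be run, because each member has 1.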
